A study of Mus musculus with 6 samples.

Results

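Dividing basophil precursor-like cells made up 921 of the 24307 cells with at least 500 detected genes (25636 cells were deposited). Members were chosen by measured values, so the genes involved carry no test here. A cell was a member when the unique molecular identifiers (UMIs) of Ms4a2, Fcer1a, Cd200r3 and Cyp11a1 summed to at least 3, those of Mki67, Top2a, Cdk1, Ccnb1, Ccnb2 and Ube2c summed to at least 3, and no UMI of Cd3d, Cd3e or Cd3g was present. There were 81, 199 and 270 members in the wild type mice WT1, WT2 and WT3 and 155, 79 and 137 in the Stag2 knockout mice KO1, KO2 and KO3. The cells came from 6 mice, 3 Stag2 KO and 3 Stag2 wt, and were lineage-negative haematopoietic stem and progenitor cells (Lin- HSPC), that is, cells that lack the lineage markers found on mature blood cells. RNA was counted with 10x Chromium 3' version 2 libraries, which tag each transcript with a UMI. Genotype is the only factor, and the question put to it is what Stag2 loss does to blood cell formation. The sources used here do not give the age, strain or sex of the mice, or which part of the gene was deleted and how. Mouse numbers follow the order of the samples and pair nothing.

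Basophils are rare granulocytes that arise in the bone marrow from progenitors shared with neutrophils and mast cells. Their precursors lose the capacity to divide while they fill secretory granules with proteases, load the high-affinity IgE receptor onto the surface and become responsive to interleukin 3 and related cytokines. Stag2 encodes one of the 2 alternative Stag subunits of cohesin, the ring complex that holds sister chromatids together through division and shapes chromatin loops. Stag1 encodes the other.

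The genes used in the choice of members are described here without a test. Levels are in CPM, the gene's UMIs per 1000000 UMIs summed over the members of a mouse. Ms4a2, the beta chain of the IgE receptor, was at 797, 871 and 643 CPM in WT1 to WT3 and 721, 659 and 644 CPM in KO1 to KO3. Fcer1a, its alpha chain, was at 2912, 3992 and 2376 CPM in WT1 to WT3 and 963, 871 and 1273 CPM in KO1 to KO3, so that the genotypes overlapped for the beta chain and did not overlap for the alpha chain. Cd200r3, a surface receptor of basophils and mast cells, was at 598, 703 and 507 CPM against 386, 409 and 453 CPM (WT1 to WT3 against KO1 to KO3, the order used throughout). Cyp11a1, the side-chain cleavage enzyme of steroid synthesis, was at 281, 284 and 215 CPM against 162, 188 and 212 CPM. Top2a, the topoisomerase that untangles replicated DNA, was at 504, 457 and 450.2 CPM against 477, 537 and 488 CPM. The median sum of the 4 basophil genes was 45, 56 and 30 UMIs per wild type member and 20, 22 and 26 UMIs per knockout member. Few members sat at the threshold of the basophil sum, with 1, 6 and 8 wild type and 5, 7 and 6 knockout members at exactly 3 UMIs. Cells that met the other conditions with a basophil sum of 2 numbered 20, 23 and 49 in wild type and 24, 21 and 22 in knockout mice. The threshold of the division sum cut through a denser range, with 6, 31 and 33 wild type and 25, 11 and 23 knockout members at exactly 3 UMIs, and 11, 36 and 61 wild type and 22, 11 and 26 knockout cells at 2 UMIs.

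Markers outside the rule bore the label out for most members. Prss34 and Mcpt8, which encode the basophil-lineage proteases mMCP-11 and mMCP-8, ranked 1 and 2 of all genes in the members at a mean of 41779 and 30559 CPM. In dividing cells without a UMI of the 4 basophil genes, Mcpt8 was at 254, 200.5 and 311 CPM in wild type and 220.1, 190.2 and 165 CPM in knockout mice, a level at which free RNA in the droplets and expression cannot be told apart. The 5 mast cell markers found in the tables (of 10 listed) summed to 8.98, 12.7 and 6.61 CPM in wild type and 13.7, 11.1 and 16.1 CPM in knockout members. That makes mast cell markers nearly absent beside Cpa3, the carboxypeptidase of mast cells and basophils, at 2705, 3076 and 2139 CPM against 1553, 1551 and 1923 CPM.

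A part of the members did not carry these proteases. Members in which Mcpt8 and Prss34 together held under 1% of the cell's UMIs numbered 10 of 81, 21 of 199 and 55 of 270 in WT1 to WT3 and 38 of 155, 20 of 79 and 27 of 137 in KO1 to KO3. The median member gave 13%, 13.8% and 12.8% of its UMIs to the 2 proteases in the wild type mice and 4.27%, 6.27% and 7.66% in the knockout mice. All 3 knockout medians were below all 3 wild type medians, and the ranges of single cells overlapped widely.

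**Figure D1:**
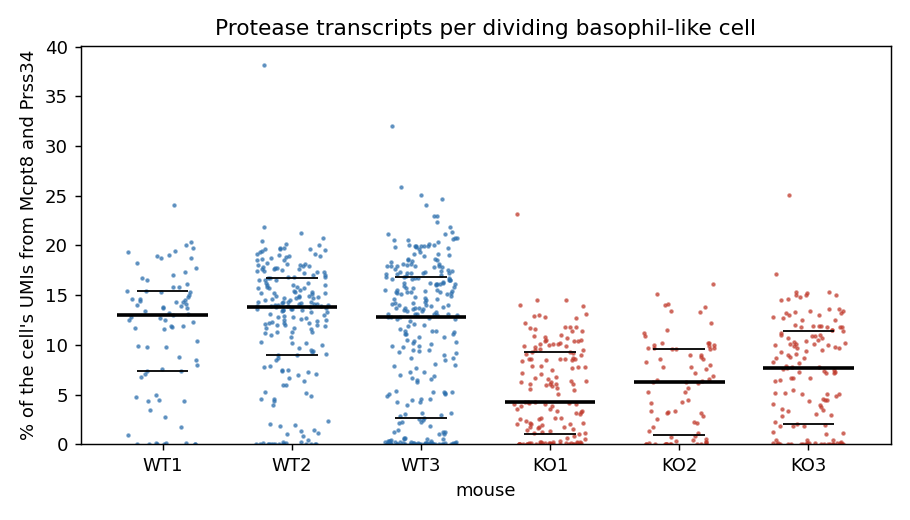
Percent of each member's UMIs that came from Mcpt8 and Prss34 (vertical axis), 1 point per cell, by mouse, with wild type in blue and Stag2 knockout in red. Thick lines are medians (13, 13.8 and 12.8% in WT1 to WT3 against 4.27, 6.27 and 7.66% in KO1 to KO3), thin lines the quartiles, and every mouse has a group of cells near 0.

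The authors' own cluster numbers, deposited per cell and mouse, separated these kinds of members in large part. Clusters in which at least 20% of the cells were members, called leading clusters here and chosen after the data were seen, held 82.7%, 85.9% and 76.3% of the wild type members and 61.9%, 63.3% and 60.6% of the knockout members. Inside them Mcpt8 was at 57468, 62645 and 54020.3 CPM in wild type and 30181, 31151 and 37716 CPM in knockout mice. Members elsewhere had Mcpt8 at 2739, 2744 and 2197 CPM and 3331, 3819 and 5913 CPM. They also held more Cd34, a progenitor surface sialomucin, at 133, 138 and 100.3 CPM in wild type and 134, 131 and 142 CPM in knockout mice, against 20.2 to 54.5 CPM inside the leading clusters. Their median depth was 11215 to 16435 UMIs per cell, above the 6087.5 to 9096 UMIs of members inside. A simulated-doublet score marked 98 of the 248 members outside and 57 of the 673 inside. The separation was not complete, since KO3 had 110 members with at least 1% protease UMIs and 83 in its leading cluster, and KO1 had 117 and 96. A KO3 cluster outside, with 21 members, had Mcpt8 at 15992 CPM.

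**Figure D2:**
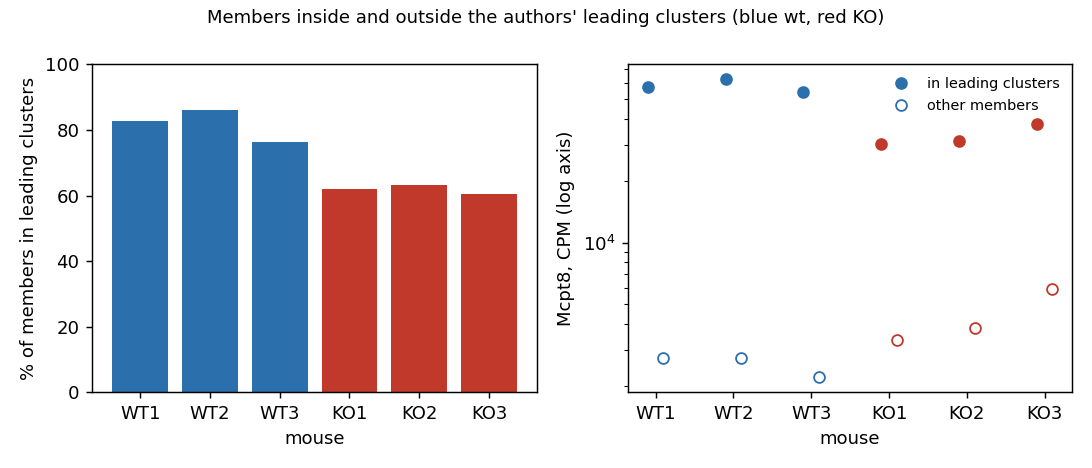
Left, percent of each mouse's members (vertical axis) that lay in the authors' leading clusters, with wild type bars in blue and knockout bars in red; right, Mcpt8 in CPM on a log axis for members inside (filled) and outside (open) these clusters. Knockout bars stand at 60.6 to 63.3% and wild type bars at 76.3 to 85.9%, and filled points exceed open points in every mouse.

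The share of members in the leading clusters differed between genotypes, but this depended on the cutoff that defined these clusters. A WT3 cluster with 40.37% of that mouse's members passed the cutoff narrowly, since members made up 20.8% of its cells. The other leading cluster of WT3 held 35.93% of its members, below the lowest knockout share (60.58% in KO3). With that cluster alone for WT3, the genotypes would overlap. The share with at least 1% protease UMIs overlapped as well, at 87.7%, 89.4% and 79.6% in wild type and 75.5%, 74.7% and 80.3% in knockout mice. Whether a call on summed members held inside the leading clusters is given for many of the named genes, though not for each. In 3' libraries that are summed over cells, fewer cells of a kind and less RNA per cell cannot be told apart. Doublet scores were high among members, at 8.64% to 21.5% of wild type and 8.86% to 23.9% of knockout members, against 1.93% to 5.42% of all kept cells. No cell barcode was shared by members of 2 libraries, although 22 members carried a barcode found in another library. WT1 and the 3 knockout mice share a title prefix that WT2 and WT3 lack, and the sources used here do not say what it stands for. With this prefix as a covariate, the genotype effect rests on the knockout mice against WT1 alone. WT2 and WT3 then inform only the spread. A call kept or lost in that fit is therefore no check of 3 against 3 mice.

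The members were set against basophil-like cells of the same mice without any UMI of the 6 division genes (4580 cells). They stood apart by their division genes, which the rule selected, by more RNA of some granule genes and by what they lacked. Birc5, a survivin-type subunit of the chromosomal passenger complex, was at 327 ± 42.9 CPM against 9.44 ± 2.55 CPM in non-dividing cells (mean ± SD over the 6 mice, as for the next values). Rrm2, the small subunit of ribonucleotide reductase, was at 224 ± 40.5 CPM against 5.18 ± 1.97 CPM. Of the granule genes, Mcpt8, Prss34 and Ctsg were higher in the members of all 6 mice. Hdc was lower in the members of all 6 mice, at 299 ± 38.9 CPM against 681 ± 289 CPM. Cpa3 was higher in the members of 4 mice, Serpinb1a in those of 3 and Cd63 in those of 1. Mcpt8 was at 30559 ± 13978 CPM against 17044 ± 5212 CPM, Prss34 at 41779 ± 13761 CPM against 23003 ± 5377 CPM and Ctsg, cathepsin G, at 3492 ± 528 CPM against 1434 ± 221 CPM. The primary granule genes of neutrophil progenitors were higher as well, with Mpo at 2051 ± 450.5 CPM against 586 ± 300.3 CPM, the proteinase gene Prtn3 at 765 ± 233 CPM against 154 ± 42.1 CPM and the elastase gene Elane at 1243 ± 474 CPM against 208 ± 86.7 CPM. Elane was at 1899.5 to 3415 CPM in members outside the leading clusters and at 89.2 to 892 CPM in those inside. Among the genes lower in the members were chemokines and receptors of mature granulocytes. Ccl6 was at 318 ± 80.0 CPM against 4219 ± 1832 CPM, Ccl9 at 488 ± 110.3 CPM against 3344 ± 641 CPM and the chemokine receptor Cxcr2 at 26 ± 8.39 CPM against 215 ± 32 CPM. Cd7, a lymphoid surface protein, was at 22.9 ± 22.4 CPM against 528 ± 324 CPM, and the anaphylatoxin receptor C3ar1 at 9.4 ± 2.94 CPM against 111 ± 17.7 CPM. Ltb, Slfn2, Tmcc1, Tcp11l2, Igsf6, Tmem71 and Ccl4 completed the 12 genes with the largest deficits, each lower in the members of all 6 mice. Il4, the cytokine basophils are known for, was at 56.8 ± 11.3 CPM against 173 ± 17.7 CPM, and Gata2, a master factor of the lineage, at 463 ± 62.4 CPM against 896 ± 67.1 CPM. No test is given for this comparison because the rule itself separates the populations.

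The targeted gene followed the labels. Stag2 (chrX:42149317-42277185 is its span in GENCODE M21, GRCm38) was at 73.1, 44.4 and 42 CPM in WT1 to WT3 and 26.1, 12.2 and 13.9 CPM in KO1 to KO3, which rest on 57, 84 and 89 UMIs against 42, 11 and 19 UMIs. The summed level of every knockout mouse lay below that of every wild type mouse (log2 fold change -1.57 ± 0.27 SE, edgeR adjusted p = 0.00243). The remaining 3' counts do not tell whether an intact transcript was left, because the deleted part is not known. Stag1, the alternative subunit, was at 44.9, 41.2 and 45.8 CPM against 55.9, 65.4 and 63 CPM, and its difference did not pass the test (log2 fold change 0.35 ± 0.15 SE, edgeR adjusted p = 0.291). Of the 19 cohesin genes tested, Stag2 was the 1 that fell and none rose, with a median log2 fold change of 0.14 beside 0.01 over all genes tested. Smc3 and Rad21, ring subunits of cohesin, had log2 fold changes of 0.15 (edgeR adjusted p = 0.609) and -0.12 (edgeR adjusted p = 0.721).

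Across the 7836 genes tested, 257 (3.28%) changed with genotype at an edgeR adjusted p under 0.05. Of these 56 (0.715%) rose and 201 (2.57%) fell in the knockout members. These shares are the background for every count over a gene list below that covers all members. The mice of the 2 genotypes did not overlap for 245 of the 257, and for 22.5% of all genes tested. The 257 were called from the same sums, so their separation is no further support. Inside the leading clusters 129 of 5807 genes passed (2.22%), 28 of them higher (0.482%) and 101 lower (1.74%). With the title prefix as a covariate the count fell to 51, with 3 higher and 48 lower.

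Granule genes fell in part. Of the 15 granule and secreted enzyme genes tested, 5 fell and none rose, beside 2.57% and 0.715% of all genes tested. The list's median log2 fold change was -0.25. Mcpt8 (chr14:56082166-56085273) was at 42166, 49577 and 36221 CPM in WT1 to WT3 and 17088, 17313 and 20987 CPM in KO1 to KO3, a wild type mean 2.31 times that of the knockout (log2 fold change -1.33 ± 0.09 SE, edgeR adjusted p = 1.31e-07). Prss34 (chr17:25298394-25300165) was at 54144, 58983 and 47400.3 CPM in WT1 to WT3 and 25804, 28529 and 35815 CPM in KO1 to KO3, 1.78 times higher in wild type (log2 fold change -0.96 ± 0.10 SE, edgeR adjusted p = 1.17e-05). Every knockout mouse was below every wild type mouse for both proteases. Cpa3 (chr3:20215620-20242181) fell as well (log2 fold change -0.78 ± 0.12 SE, edgeR adjusted p = 9.52e-04), with wild type members 1.58 times higher.

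The promoters of Prss34 and Cpa3 are shown because both genes fell with Mcpt8, and because GATA factors such as Gata2 are known to bind GATAA in mast cell and basophil genes. The 250 bases before the RefSeq start of each gene (GRCm38.p6) were searched for GATAA on both strands, read as GATAA or TTATC, and matches are in capitals. Prss34 on the + strand is at chr17:25298144-25298393, with 1 match 30 bases before the start, and Cpa3 on the - strand is at chr3:20242182-20242431, with 1 match 45 bases before the start.
Prss34: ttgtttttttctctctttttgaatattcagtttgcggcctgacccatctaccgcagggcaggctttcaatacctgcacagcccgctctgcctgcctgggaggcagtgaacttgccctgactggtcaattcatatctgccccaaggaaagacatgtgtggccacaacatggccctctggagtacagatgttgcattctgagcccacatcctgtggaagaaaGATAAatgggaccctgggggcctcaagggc
Cpa3: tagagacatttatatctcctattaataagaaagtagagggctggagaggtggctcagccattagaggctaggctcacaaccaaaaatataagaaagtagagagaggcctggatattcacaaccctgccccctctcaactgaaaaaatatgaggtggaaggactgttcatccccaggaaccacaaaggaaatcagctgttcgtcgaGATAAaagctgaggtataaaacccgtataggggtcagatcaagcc
The corresponding window of Mcpt8 held 0 matches and is not printed, because the GENCODE model of the gene begins inside it. Of 32851 RefSeq promoter windows of this length, 22.58% held at least 1 match. A match describes the letters and is no evidence of binding. Gata2 itself was at 469.6, 528 and 355 CPM against 495, 429.9 and 500.3 CPM in the members and did not pass the test (log2 fold change -0.05 ± 0.13 SE, edgeR adjusted p = 0.925).

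Serpinb1a, an inhibitor of granule serine proteases, was at 221, 319 and 299 CPM in WT1 to WT3 and 152, 139.6 and 196 CPM in KO1 to KO3 (log2 fold change -0.91 ± 0.15 SE, edgeR adjusted p = 0.00151). Cd63, a tetraspanin of granule membranes that marks degranulation, was at 2656, 3228 and 2885 CPM in WT1 to WT3 and 2146, 1890.2 and 2416 CPM in KO1 to KO3 (log2 fold change -0.57 ± 0.10 SE, edgeR adjusted p = 0.00294). Both fell without overlap between genotypes. The other 10 granule genes did not pass. Hdc, the histidine decarboxylase that makes histamine, was at 245, 347 and 338 CPM in WT1 to WT3 and 282, 277 and 302 CPM in KO1 to KO3, and these ranges overlapped (log2 fold change -0.25 ± 0.13 SE, edgeR adjusted p = 0.412). Ctsg, cathepsin G, was at 3681, 4394 and 3155 CPM against 3024, 3055 and 3642 CPM (log2 fold change -0.33 ± 0.11 SE, edgeR adjusted p = 0.134), and the proteoglycan core gene Srgn was at 1955, 2207 and 2029 CPM against 2061, 1741 and 2127 CPM (log2 fold change -0.19 ± 0.09 SE, edgeR adjusted p = 0.384).

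Inside the leading clusters the 5 granule genes still passed. There the log2 fold change was -0.93 for Mcpt8 (edgeR adjusted p = 1.36e-05), -0.48 for Prss34 (edgeR adjusted p = 0.0251) and -0.67 for Cpa3 (edgeR adjusted p = 0.00113). With the prefix covariate Mcpt8, Prss34 and Cpa3 kept their calls, whereas Serpinb1a (log2 fold change -0.57, edgeR adjusted p = 0.292) and Cd63 (-0.44, edgeR adjusted p = 0.236) did not.

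**Figure D3:**
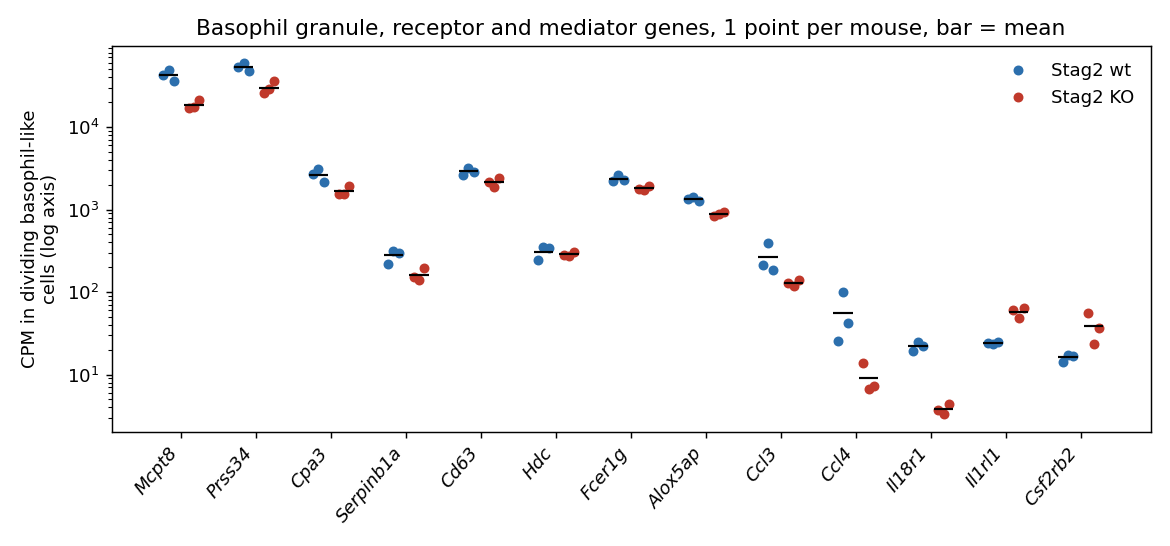
CPM summed over the members of each mouse (vertical axis, log scale) for 13 granule, receptor and mediator genes, 1 point per mouse, with wild type in blue, Stag2 knockout in red and short bars at the means. Mcpt8 lies at 36221 to 49577 CPM in wild type and 17088 to 20987 CPM in knockout mice, Hdc overlaps, and Il1rl1 and Csf2rb2 stand higher in the knockout.

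The IgE receptor's signalling chain moved in part. Of 13 genes tested besides the receptor chains of the rule, 3 fell and none rose, beside 2.57% and 0.715% of all genes tested. The list's median log2 fold change was 0.06. Fcer1g, the signalling gamma chain, was at 2214, 2598 and 2297 CPM in WT1 to WT3 and 1794, 1748 and 1917 CPM in KO1 to KO3 (log2 fold change -0.51 ± 0.09 SE, edgeR adjusted p = 0.00316). Lat and Lat2, the membrane scaffolds that recruit enzymes to the engaged receptor, fell by a log2 change of -0.62 (edgeR adjusted p = 0.00567) and -0.64 (edgeR adjusted p = 0.00713). Inside the leading clusters none of these 3 passed (for Fcer1g, log2 fold change -0.21, edgeR adjusted p = 0.378). None of the 3 passed with the prefix covariate (edgeR adjusted p = 0.206, 0.155 and 0.0771 for Fcer1g, Lat and Lat2). Syk, the kinase that docks on the gamma chain, was at 18, 19 and 18.4 CPM against 25.5, 39.9 and 24.9 CPM, which did not pass (log2 fold change 0.52 ± 0.23 SE, edgeR adjusted p = 0.321).

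Cytokine receptors changed in both directions. Of 11 tested, 3 rose and 2 fell, beside 0.715% and 2.57% of all genes tested. Il1rl1, the receptor for interleukin 33, was at 24.4, 23.8 and 24.5 CPM in WT1 to WT3 and 60.8, 48.8 and 64.5 CPM in KO1 to KO3, 2.39 times higher in the knockout (log2 fold change 1.15 ± 0.17 SE, edgeR adjusted p = 7.54e-04). Il18r1, the neighbouring receptor gene for interleukin 18, was at 19.2, 24.8 and 22.2 CPM in WT1 to WT3 and 3.73, 3.32 and 4.39 CPM in KO1 to KO3, 5.79 times higher in wild type (log2 fold change -2.64 ± 0.32 SE, edgeR adjusted p = 9.06e-05). Il1rl1 lies at chr1:40429570-40465415 and Il18r1 at chr1:40465552-40500854 on the same strand, so that 2 adjacent genes moved in opposite directions. Both calls held inside the leading clusters, at log2 fold changes of 1.31 (edgeR adjusted p = 3.18e-04) and -2.56 (edgeR adjusted p = 0.001). With the prefix covariate Il18r1 kept its call (log2 fold change -2.43, edgeR adjusted p = 0.0363) and Il1rl1 did not (1.13, edgeR adjusted p = 0.155).

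Csf2rb, the beta chain shared by the receptors for interleukin 3, interleukin 5 and GM-CSF, was at 84.7, 93 and 87.3 CPM in WT1 to WT3 and 144, 133 and 136 CPM in KO1 to KO3 (log2 fold change 0.51 ± 0.11 SE, edgeR adjusted p = 0.0162). Csf2rb2, its near-identical copy that serves interleukin 3, was at 14.1, 17.4 and 17 CPM against 55.9, 23.3 and 36.6 CPM (log2 fold change 1.15 ± 0.26 SE, edgeR adjusted p = 0.0198). Reads of these 2 genes may be split between the copies, so their separate values are uncertain. Without KO1 neither passed, with log2 fold changes of 0.49 with an edgeR adjusted p of 0.0872 for Csf2rb and 0.77 with an edgeR adjusted p of 0.223 for Csf2rb2. Csf2rb also lost its call without KO3 or without WT3, and Csf2rb2 without KO3. Il3ra, the alpha chain for interleukin 3, was at 169, 179 and 136 CPM against 127, 124 and 161 CPM (log2 fold change -0.35 ± 0.14 SE, edgeR adjusted p = 0.237). Crlf2, the receptor for the cytokine TSLP, fell (log2 fold change -0.60 ± 0.14 SE, edgeR adjusted p = 0.0281), although inside the leading clusters its log2 fold change was -0.50 (edgeR adjusted p = 0.0763). Csf2rb, Csf2rb2 and Crlf2 lost their calls with the prefix covariate (edgeR adjusted p = 0.29, 0.357 and 0.394).

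Among surface and adhesion genes 7 of 21 fell and 1 rose, beside 2.57% and 0.715% of all genes tested. The list's median log2 fold change was -0.36. Itgb7, an integrin beta chain for mucosal homing, was at 117, 112 and 103 CPM in WT1 to WT3 and 31, 45.4 and 44.7 CPM in KO1 to KO3 (log2 fold change -1.59 ± 0.15 SE, edgeR adjusted p = 7.36e-06). Cd9, a tetraspanin, was at 357, 447 and 377 CPM against 214, 217 and 274 CPM (log2 fold change -0.87 ± 0.13 SE, edgeR adjusted p = 7.15e-04). Itgb2, Cd300a and Fcgr2b also fell, as did Cd63 above. Inside the leading clusters 4 of 20 genes of the list fell (1.74% of all genes tested there), Itgb7, Cd9 and Cd63 among them. Cd34 was the 1 gene of the list that rose, at 52.6, 48.6 and 54.7 CPM against 93.1, 76.4 and 85.7 CPM (log2 fold change 0.60 ± 0.14 SE, edgeR adjusted p = 0.0198). It lost its call inside the leading clusters (log2 fold change 0.31, edgeR adjusted p = 0.768) and without KO1 (0.53 with an edgeR adjusted p of 0.134), KO3 or WT2. Of the genes named here Itgb7 alone kept its call with the prefix covariate (edgeR adjusted p = 8.59e-04), and the others ranged from an edgeR adjusted p of 0.0811 for Cd9 to 0.659 for Itgb2.

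Secreted mediators fell in part. Of 12 tested, 3 fell and none rose, beside 2.57% and 0.715% of all genes tested. The list's median log2 fold change was -0.51. Alox5ap, the protein that presents arachidonic acid to 5-lipoxygenase for leukotriene synthesis, was at 1349.7, 1407 and 1277 CPM in WT1 to WT3 and 836, 893 and 922 CPM in KO1 to KO3 (log2 fold change -0.73 ± 0.10 SE, edgeR adjusted p = 2.35e-04). The chemokine genes Ccl3 and Ccl4 were at 216, 398 and 183 CPM against 128, 117 and 141 CPM and at 25.7, 100.4 and 42 CPM against 13.7, 6.65 and 7.32 CPM. Ccl3 fell by a log2 change of -1.17 (edgeR adjusted p = 0.00326) and Ccl4 by -2.74 (edgeR adjusted p = 8.33e-04), with WT2 the highest mouse for both. Alox5ap kept its call with the prefix covariate (edgeR adjusted p = 0.0103), and Ccl3 and Ccl4 did not (edgeR adjusted p = 0.29 and 0.453). Il4 was at 71.8, 68.2 and 53.8 CPM against 47.2, 43.2 and 56.4 CPM and Il6 at 48.8, 56 and 48.1 CPM against 37.9, 39.9 and 36.6 CPM, and neither passed (log2 fold change -0.49 ± 0.16 SE, edgeR adjusted p = 0.138 for Il4, log2 fold change -0.56 ± 0.16 SE, edgeR adjusted p = 0.069 for Il6).

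Transcription factors of the lineage were mostly without a call. Of 29 tested, 3 rose and 4 fell, beside 0.715% and 2.57% of all genes tested. The list's median log2 fold change was 0.04. Runx1, a core haematopoietic factor, was at 160.4, 133 and 133 CPM in WT1 to WT3 and 227, 202 and 235 CPM in KO1 to KO3 (log2 fold change 0.53 ± 0.12 SE, edgeR adjusted p = 0.0182). Lmo4, a LIM-domain partner protein, was at 376, 392.01 and 418 CPM against 576, 613 and 664 CPM (log2 fold change 0.52 ± 0.11 SE, edgeR adjusted p = 0.0128), and Myb, a factor of proliferating progenitors, at 79.5, 78.2 and 110.0 CPM against 137, 167 and 146 CPM (log2 fold change 0.60 ± 0.15 SE, edgeR adjusted p = 0.0307). Cebpb, a C/EBP factor of granulocytes, was at 236, 364 and 283 CPM in WT1 to WT3 and 142, 162 and 215 CPM in KO1 to KO3 (log2 fold change -0.90 ± 0.16 SE, edgeR adjusted p = 0.00355), and Irf8, the factor of monocyte and dendritic fates, at 64.2, 35.9 and 129 CPM against 20.5, 23.3 and 27.1 CPM (log2 fold change -1.86 ± 0.36 SE, edgeR adjusted p = 0.00621). Id2 and Lmo2 fell too, by log2 changes of -0.79 (edgeR adjusted p = 0.00543) and -0.56 (edgeR adjusted p = 0.0238). Runx1, Lmo2 and Cebpb passed inside the leading clusters. Lmo4 (0.41, edgeR adjusted p = 0.058), Myb (0.51, edgeR adjusted p = 0.243), Irf8 (-1.82, edgeR adjusted p = 0.0916) and Id2 (-0.51, edgeR adjusted p = 0.262) did not. Lmo4 also lost its call without KO3. None of the 7 passed with the prefix covariate, where the edgeR adjusted p ranged from 0.176 for Lmo4 to 0.576 for Runx1.

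Few division genes passed the test between genotypes in the members. Members of both genotypes were chosen for at least 3 UMIs of 6 division genes, which limits how far related genes can differ. In other dividing cells, chosen by the same division threshold and with larger sums, 2 S phase genes, 12 G2 and M phase genes and 2 spindle checkpoint and kinetochore genes fell. None of these lists had a rise there, and 6.11% of all genes tested fell. None of 43 S phase genes and none of 21 spindle checkpoint and kinetochore genes passed edgeR's test in either direction. The summed level of the S phase list was 3585, 3457 and 3314 CPM in wild type and 3674, 4039 and 3806 CPM in knockout members, with a median log2 fold change of 0.06. Of 48 G2 and M phase genes, 3 fell and none rose, beside 2.57% and 0.715% of all genes tested. Their median log2 fold change was -0.21. After every cell was thinned to 3000 UMIs it was -0.02, over the 35 of these genes tested then and the members that remained. The list's summed level over all members was 7744, 8826 and 7953 CPM and 7512, 7232 and 7617 CPM. Cenpa, the centromeric histone variant, was at 300.2, 331 and 303 CPM in WT1 to WT3 and 245, 191 and 264 CPM in KO1 to KO3 (log2 fold change -0.54 ± 0.13 SE, edgeR adjusted p = 0.0222). Hmgb2, a chromatin protein abundant in mitotic cells, and Lbr, the lamin B receptor, fell by log2 changes of -0.35 (edgeR adjusted p = 0.0475) and -0.50 (edgeR adjusted p = 0.0373).

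None of these 3 passed inside the leading clusters (for Cenpa, log2 fold change -0.36, edgeR adjusted p = 0.15). Each lost its call when single libraries were left out: Cenpa without KO1, KO2 or WT2, Lbr without KO1, KO3, WT2 or WT3, and Hmgb2 without KO1, KO2, KO3, WT1 or WT2. Of 17 cyclins, Cdks and Cdk inhibitors, Cdkn2d, an inhibitor of Cdk4 and Cdk6, fell (log2 fold change -0.53 ± 0.13 SE, edgeR adjusted p = 0.0306). That call was lost inside the leading clusters (-0.41, edgeR adjusted p = 0.146) and without KO1, KO2, WT1 or WT2. Ccnd2, cyclin D2, was at 65.4, 63.9 and 75 CPM against 122, 101 and 84.2 CPM (log2 fold change 0.46 ± 0.15 SE, edgeR adjusted p = 0.118). Of 9 p53 target genes Gadd45a, a stress-induced growth arrest gene, rose from 26.9, 40.7 and 28.8 CPM to 78.8, 62 and 76.9 CPM (log2 fold change 1.03 ± 0.17 SE, edgeR adjusted p = 0.00199), and the other 8 did not pass. With the prefix covariate Cenpa, Hmgb2, Lbr, Cdkn2d and Gadd45a had no call (edgeR adjusted p = 0.356, 0.387, 0.538, 0.354 and 0.0758).

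The genes that fell furthest were not granule genes. Igfbp7, a secreted protein that binds insulin-like growth factors, was at 123, 160.1 and 102 CPM in WT1 to WT3 and 5.59, 2.22 and 8.06 CPM in KO1 to KO3, 24.3 times higher in wild type (log2 fold change -4.61 ± 0.26 SE, edgeR adjusted p = 1.20e-08). Cdh1, E-cadherin, was at 77, 70.8 and 45.3 CPM in WT1 to WT3 and 3.1, 4.43 and 2.2 CPM in KO1 to KO3 (log2 fold change -4.42 ± 0.32 SE, edgeR adjusted p = 1.84e-07). Igfbp7 rests on 96, 303 and 216 UMIs against 9, 2 and 11 UMIs. Cdh1 rests on 60, 134 and 96 UMIs against 5, 4 and 3 UMIs. The knockout levels of both are too low to tell expression from free RNA, so the size of these falls is uncertain. Ifitm1, an interferon-induced transmembrane protein, was at 1265, 755 and 1251 CPM in WT1 to WT3 and 164, 126 and 129.6 CPM in KO1 to KO3 (log2 fold change -3.08 ± 0.18 SE, edgeR adjusted p = 1.37e-08). For these 3 genes every knockout mouse was below every wild type mouse. Ms4a6c (log2 fold change -2.98 ± 0.19 SE, edgeR adjusted p = 4.73e-08), the osteopontin gene Spp1 (-2.85, edgeR adjusted p = 2.59e-06) and Slpi, a secreted inhibitor of leukocyte proteases, at 352, 426 and 402 CPM against 59.6, 56.5 and 64.5 CPM (log2 fold change -2.83 ± 0.13 SE, edgeR adjusted p = 5.12e-10), followed.

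Rcn3, a calcium-binding protein of the endoplasmic reticulum, fell by a log2 change of -2.66 (edgeR adjusted p = 2.35e-05). Ccl5, a chemokine, fell by -2.62 (edgeR adjusted p = 5.37e-05), and Thy1, a surface glycoprotein, by -2.39 (edgeR adjusted p = 6.35e-06). Gm2a, the activator protein for ganglioside breakdown in lysosomes, fell by -2.22 (edgeR adjusted p = 9.28e-07). The histone gene Hist1h2ap was at 477, 1435 and 1363 CPM in WT1 to WT3 and 213, 362 and 149 CPM in KO1 to KO3 (log2 fold change -2.32 ± 0.33 SE, edgeR adjusted p = 4.16e-04). It belongs to a cluster of near-identical copies, its value is uncertain for that reason, and WT1, the wild type mouse with the knockouts' title prefix, was nearest to the knockout range. With the prefix as a covariate Hist1h2ap (edgeR adjusted p = 0.105) and Ccl4 (edgeR adjusted p = 0.453) lost their calls, and the other 10 of the 12 largest falls kept theirs. All 12 passed inside the leading clusters.

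The 12 largest rises were smaller. Gmpr, guanosine monophosphate reductase, was at 24.4, 23.2 and 30.2 CPM in WT1 to WT3 and 71.4, 59.8 and 65.2 CPM in KO1 to KO3 (log2 fold change 1.198 ± 0.17 SE, edgeR adjusted p = 4.23e-04). Rab38, a small GTPase of lysosome-related organelles, was at 28.2, 24.3 and 26.9 CPM against 72.6, 52.1 and 66.7 CPM (log2 fold change 1.18 ± 0.17 SE, edgeR adjusted p = 6.46e-04), and H1fx, a linker histone, at 35.9, 39.6 and 40.1 CPM against 106, 79.8 and 89.4 CPM (log2 fold change 1.12 ± 0.15 SE, edgeR adjusted p = 2.19e-04). Sox4, a progenitor transcription factor, was at 50.04, 42.3 and 46.2 CPM against 145, 80.9 and 95.2 CPM (log2 fold change 1.13 ± 0.18 SE, edgeR adjusted p = 0.00145), with KO1 the highest. Adgrg1, an adhesion receptor of stem cells, was at 68, 67.1 and 63.2 CPM against 147, 154 and 105 CPM (log2 fold change 0.91 ± 0.15 SE, edgeR adjusted p = 0.00125), and Gstm1, a glutathione transferase, at 88.5, 84 and 133 CPM against 188, 187 and 257 CPM (log2 fold change 0.91 ± 0.17 SE, edgeR adjusted p = 0.00479).

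Il1rl1, Csf2rb2 and Gadd45a above belong to the same group, as do Mfng (0.99, edgeR adjusted p = 0.0125), Hsd17b1 (0.94, edgeR adjusted p = 0.0153) and Hs3st1 (0.87, edgeR adjusted p = 0.041). Inside the leading clusters 9 of the 12 passed. Sox4 (0.46, edgeR adjusted p = 0.719), Adgrg1 (0.57, edgeR adjusted p = 0.114) and Gstm1 (0.37, edgeR adjusted p = 0.534) did not. With the prefix covariate H1fx alone of the 12 kept its call (log2 fold change 1.23, edgeR adjusted p = 0.0369). Without KO1 the calls of Mfng (0.92 with an edgeR adjusted p of 0.0853), Hsd17b1 (0.76 with an edgeR adjusted p of 0.136) and Hs3st1 (0.88 with an edgeR adjusted p of 0.116) were lost. Mfng also lost its call without KO3, Hsd17b1 without WT2, and Hs3st1 without KO2, KO3 or WT3.

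Some markers of other lineages had a call in the members, and most of these calls were lost in single alternatives. Of 12 neutrophil progenitor markers 3 rose and 1 fell, beside 0.715% and 2.57% of all genes tested. The list's summed level was 7258, 8494 and 11692 CPM in wild type and 10662, 15737 and 10642 CPM in knockout members. Inside the leading clusters the sums were 6704, 7391 and 8006 CPM and 8101, 7047 and 7685 CPM. Mpo, the myeloperoxidase of primary granules, was at 1592, 1655 and 1810.2 CPM in WT1 to WT3 and 2221, 2257 and 2771 CPM in KO1 to KO3 (log2 fold change 0.39 ± 0.10 SE, edgeR adjusted p = 0.0411), and Lcn2, lipocalin 2, at 87.2, 104 and 103 CPM against 136, 274 and 176 CPM (log2 fold change 0.83 ± 0.19 SE, edgeR adjusted p = 0.022). Cebpe rose (log2 fold change 1.39 ± 0.36 SE, edgeR adjusted p = 0.0409) and Ms4a3, a membrane protein of granulocyte progenitors, fell (log2 fold change -0.54 ± 0.11 SE, edgeR adjusted p = 0.0119). Left out singly, KO2, KO3, WT1 and WT2 each ended the calls of Mpo and Cebpe, KO2, KO3 and WT1 that of Lcn2, and KO1 and WT2 that of Ms4a3. Of these 4, Lcn2 alone passed inside the leading clusters (log2 fold change 1.06, edgeR adjusted p = 5.04e-05). Camp, a cathelicidin of neutrophil granules, passed there too (log2 fold change 2.20, edgeR adjusted p = 0.0022) but not over all members, where it overlapped at 2.57, 6.87 and 403 CPM against 365, 1638 and 32.2 CPM. None of the 4 kept its call with the prefix covariate (edgeR adjusted p = 0.275, 0.251, 0.345 and 0.352 for Mpo, Lcn2, Cebpe and Ms4a3).

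Of 7 monocyte and dendritic cell markers tested, Irf8 and Ly6c2 fell, with summed levels of 359, 329.7 and 734 CPM and 306, 275 and 297 CPM. WT3 was the highest mouse for both genes, and Ly6c2 lost its call without WT3 (-0.47 with an edgeR adjusted p of 0.168), KO2 or KO3. Inside the leading clusters 5 of these markers were tested, and none of them passed as lower in the knockout, while 1 passed as higher. Of 3 lymphoid markers Nkg7 and Ccl5 fell, and Nkg7 lost its call without KO1, KO2, KO3, WT2 or WT3, each left out singly. Of 4 erythroid markers Car2 rose (log2 fold change 0.79 ± 0.20 SE, edgeR adjusted p = 0.0399), with KO1 the highest of 246, 116 and 136 CPM, and without KO1 its log2 fold change was 0.38 with an edgeR adjusted p of 0.266. Its call was also lost without each wild type mouse. Neither of 2 megakaryocyte markers, none of 3 eosinophil markers and not the 1 mast cell marker tested (Ctse) passed edgeR's test. Of 6 stem and early progenitor markers, Cd34 rose, as given above, and Cd48 fell (log2 fold change -0.53 ± 0.13 SE, edgeR adjusted p = 0.0248). Cd48 is a lymphocyte and progenitor adhesion protein, and its call was lost without KO1, KO2 or WT2. Inside the leading clusters 2 of the 6 were tested and none passed. The eosinophil gene Prg2 was at 19.2, 442 and 132 CPM in wild type and 419.7, 55.4 and 127 CPM in knockout members, which overlapped. With the prefix covariate Ccl5 kept its call, and Irf8, Ly6c2, Nkg7, Car2, Cd34 and Cd48 did not. The part of these cells or RNAs in the results above was not tested.

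Of 6 immediate early genes, Jund fell from 68, 66.6 and 65.1 CPM to 44.1, 44.3 and 43.9 CPM (log2 fold change -0.71 ± 0.14 SE, edgeR adjusted p = 0.00713) and Ier3 fell (log2 fold change -0.98 ± 0.21 SE, edgeR adjusted p = 0.015), and neither passed inside the leading clusters (edgeR adjusted p = 0.289 and 0.092). Without KO1 or WT2 the call of Ier3 was lost, as were those of both genes with the prefix covariate (edgeR adjusted p = 0.19 and 0.419). Such genes respond to cell handling as well as to signals, and their part in the results was not tested.

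The same fit in non-dividing basophil-like cells gave 786 of 8945 genes (8.79%), with 254 higher (2.84%) and 532 lower (5.95%) in the knockout. In other dividing cells of the same 6 mice (3815 cells) it gave 1057 of 10829 genes (9.76%), with 395 higher (3.65%) and 662 lower (6.11%). Those sums are larger than the members' 779428 to 2119102 UMIs, which bears on how many genes can pass. Other dividing cells pool several lineages. There neutrophil progenitor markers summed to 9853, 13832 and 21041 CPM in wild type and 35658, 33717 and 28481 CPM in knockout mice. Monocyte and dendritic cell markers summed to 2671, 2932 and 2461 CPM and 1056, 1492 and 1050 CPM. The part of this mix in genotype effects in other dividing cells, and in differences from them, was not tested. Of the 257 genes that changed in the members, 188 also changed in the same direction in non-dividing basophil-like cells and 117 in other dividing cells. A test of the difference itself between the members' genotype effect and that of non-dividing basophil-like cells passed for 40 of 8930 genes (0.448%), positive for 23 (0.258%) and negative for 17 (0.19%), and 16 of the 257 were among them. Against other dividing cells it passed for 172 of 9897 genes (1.74%), positive for 35 (0.354%) and negative for 137 (1.38%), with 61 of the 257 among them. The populations share libraries, and the fit has a term for each mouse. Limma on each mouse's own difference between populations called 0 genes against non-dividing cells (658 at an unadjusted p under 0.05) and 1 gene against other dividing cells, so these differences rest on edgeR's count model.

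Whether the granule genes fell further in dividing than in non-dividing basophil-like cells depended on the cells compared. Mcpt8 in non-dividing cells was at 18875, 19839 and 25307 CPM in wild type and 13230.0, 11946 and 13067 CPM in knockout mice, a log2 fold change in knockout of -0.85 (edgeR adjusted p = 1.13e-05). The difference of the effects, members minus non-dividing cells, was -0.50 ± 0.10 SE for Mcpt8 (edgeR adjusted p = 0.00771), -0.53 ± 0.12 SE for Prss34 (edgeR adjusted p = 0.0363) and -0.55 ± 0.13 SE for Cpa3 (edgeR adjusted p = 0.0348). With members of the leading clusters it was -0.11, edgeR adjusted p = 0.854 for Mcpt8, -0.06, edgeR adjusted p = 0.943 for Prss34 and -0.45, edgeR adjusted p = 0.0165 for Cpa3. With every cell thinned to 3000 UMIs it turned positive for Mcpt8 (0.20, edgeR adjusted p = 0.852) and Prss34 (0.35, edgeR adjusted p = 0.536). Each of the 3 also lost its call without KO1, without KO2 or without WT1, and Prss34 and Cpa3 without WT2.

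Serpinb1a kept its difference without each library and inside the leading clusters. It was at 175, 226 and 232 CPM and 225, 244 and 272 CPM in non-dividing cells, and its difference was -1.04 ± 0.13 SE (edgeR adjusted p = 9.67e-06). Thinning gave -0.94, edgeR adjusted p = 0.146.

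Hdc differed in the opposite direction. It was at 729.6, 1013 and 1035 CPM in wild type and 412, 446 and 453 CPM in knockout non-dividing cells (log2 fold change -1.19, edgeR adjusted p = 1.04e-05). In the members Hdc did not pass, and the difference between populations was 0.94 ± 0.11 SE (edgeR adjusted p = 1.30e-06). That difference held without each library and inside the leading clusters, and was 0.03, edgeR adjusted p = 1.0 after thinning. In other dividing cells Hdc was at 28, 28.9 and 37 CPM and 98.3, 87.3 and 109 CPM, higher in the knockout (log2 fold change 1.63, edgeR adjusted p = 4.45e-05). Cpa3 rose in the same cells, from 36.4, 38.2 and 55.4 CPM to 139, 129 and 165 CPM (log2 fold change 1.71, edgeR adjusted p = 1.34e-04), while it fell in the members. The members' effect minus that in other dividing cells was -2.49 ± 0.17 SE for Cpa3 (edgeR adjusted p = 9.45e-09) and -1.90 ± 0.13 SE for Hdc (edgeR adjusted p = 9.45e-09). Both differences passed without each library, inside the leading clusters and after thinning. The levels of Cpa3 and Hdc in other dividing cells were below those of Mcpt8 there, although Mcpt8 was not higher in the knockout mice. The median other dividing cell had 0% of its UMIs from Cpa3 in every mouse. The 90th percentile was 0.0074%, 0.0076% and 0.0123% in WT1 to WT3 and 0.0399%, 0.0422% and 0.0547% in KO1 to KO3. The part of free RNA in these values, and that of the mix of lineages, was not tested.

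Gstm1 and Csf2rb2 rose in the members and had lower fitted values in the knockout of non-dividing basophil-like cells. Gstm1 there was at 321, 281 and 398 CPM and 218, 273 and 251 CPM (log2 fold change -0.54, edgeR adjusted p = 0.0185), and the difference was 1.45 ± 0.15 SE (edgeR adjusted p = 1.39e-07). For Csf2rb2 the non-dividing log2 fold change was -0.28 (edgeR adjusted p = 0.49) and the difference 1.34 ± 0.20 SE (edgeR adjusted p = 2.23e-04). Cdh1 had a larger fitted fall in the members (difference -1.79 ± 0.34 SE, edgeR adjusted p = 0.00413). Its knockout level there rests on 5, 4 and 3 UMIs, so the size of that difference is uncertain. Ifitm1 fell less in the members (difference 1.28 ± 0.14 SE, edgeR adjusted p = 9.00e-07). The call of Cdh1 was lost without KO1 (-1.65, edgeR adjusted p = 0.213) or KO3 and inside the leading clusters, and no difference from non-dividing cells passed after thinning. For Igfbp7 the difference from other dividing cells passed (-2.74 ± 0.50 SE, edgeR adjusted p = 0.00379), and was lost without KO1 (-2.81, edgeR adjusted p = 0.0537). Igfbp7 in those cells was at 4.22, 3.76 and 2.41 CPM and 0.789, 1.2 and 0.781 CPM, on 7 to 29 UMIs per mouse, which is too low to tell expression from free RNA, so no change of expression is read there.

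**Figure D4:**
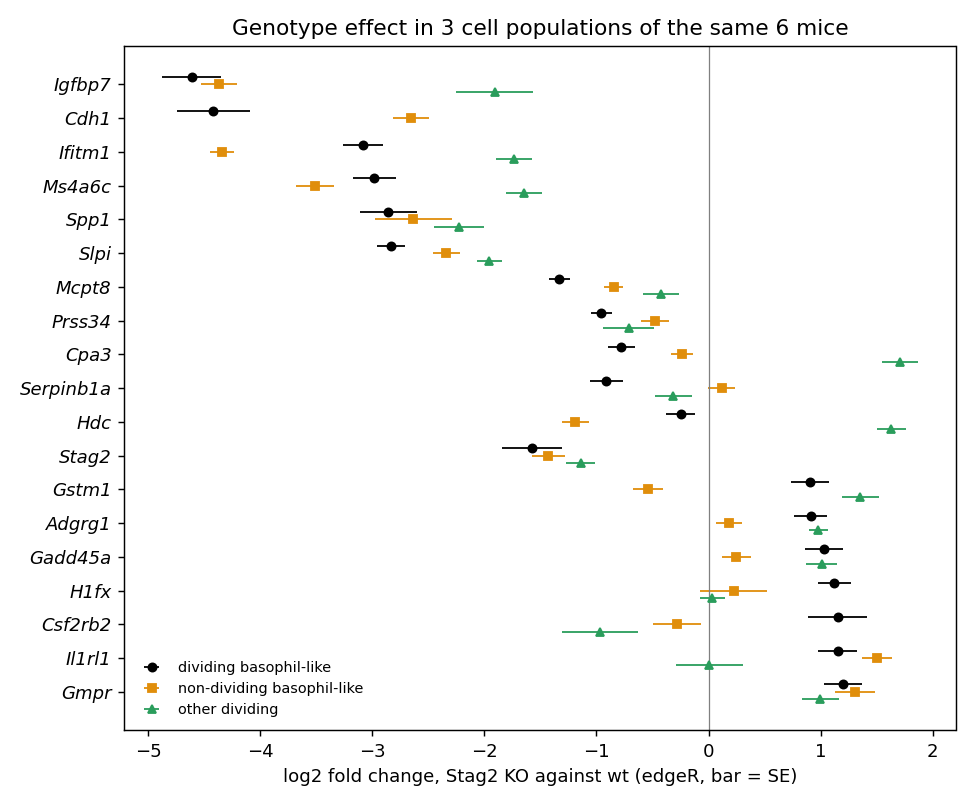
Log2 fold change of Stag2 knockout against wild type (horizontal axis, edgeR, bars are SE) for 19 genes in dividing basophil-like cells (black circles), non-dividing basophil-like cells (orange squares) and other dividing cells (green triangles; Cdh1 was too low to test there). The 3 symbols lie left of 0 for Ifitm1, and those for Cpa3 and Hdc stand on both sides of 0.

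The share of members depended on how depth was handled. As deposited, members were 3.29%, 4.51% and 3.99% of the kept cells in WT1 to WT3 and 3.46%, 3.25% and 3.65% in KO1 to KO3 (exact permutation p = 0.3, 2-sided). Kept wild type cells were shallower, with medians of 4389.5, 5019 and 3659.5 UMIs against 6048, 5814.5 and 6040.5 UMIs, and a threshold on UMIs is harder to pass in a shallow cell. After each cell was thinned to 3000 UMIs and shallower cells were left out, members were 2.86%, 3.61% and 3.88% in wild type and 1.96%, 1.76% and 2.01% in knockout mice. The genotype means were 3.45% ± 0.530 and 1.91% ± 0.129 (SD, n = 3 each), with no overlap (exact permutation p = 0.1, 2-sided, the smallest that 3 against 3 mice allow).

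Among basophil-like cells, the thinned share in division was 16.1%, 18.2% and 22.5% in wild type and 10.3%, 8.72% and 8.79% in knockout mice (means 18.9% ± 3.25 and 9.27% ± 0.887, SD, n = 3 each, exact permutation p = 0.1, 2-sided). Without thinning it was 15.1% ± 1.54 and 13.9% ± 0.938 (exact permutation p = 0.5, 2-sided, n = 3 each). Thinning left out 238, 477 and 1053 of the 411, 825 and 1360 non-dividing basophil-like cells of WT1 to WT3 and 275, 104 and 280 of 777, 414 and 793 in KO1 to KO3. It left out 2 to 14 members per mouse for depth. More members were lost because they fell below the UMI thresholds once thinned, so that 48 of 81, 115 of 199 and 150 of 270 remained in WT1 to WT3 and 71 of 155, 36 of 79 and 62 of 137 in KO1 to KO3. Losses of non-dividing cells were heavier in wild type, those of members were heavier in the knockout, whose basophil sums were lower, and the part of either in the difference was not tested. Because Fcer1a was lower in knockout members, the share was also taken without Fcer1a in the rule. That gave 3.11% ± 0.479 and 1.58% ± 0.126 of thinned cells (SD, n = 3 each). Cd200r3 and Cyp11a1 stayed in that rule and were also lower in the members of every knockout mouse than in those of every wild type mouse. The part of their lower levels in the share was not tested. At 2000 UMIs the thinned shares of all cells overlapped between genotypes, at 2.01% ± 0.546 and 1.28% ± 0.134 (exact permutation p = 0.2, 2-sided, n = 3 each).

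**Figure D5:**
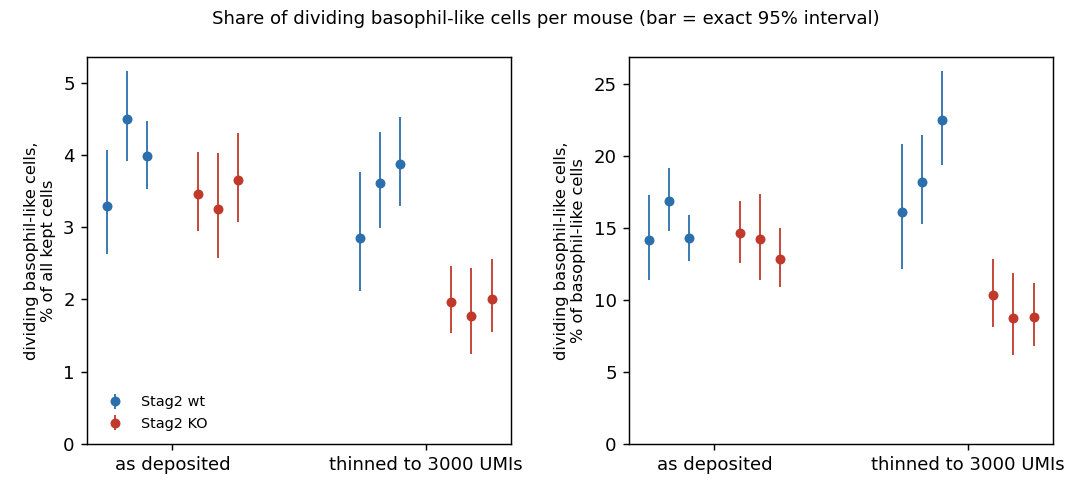
Percent of kept cells (left) and of basophil-like cells (right) that were members, 1 point per mouse with its exact 95% binomial interval (counting error only), as deposited and after thinning to 3000 UMIs; wild type in blue and Stag2 knockout in red. The genotypes overlap as deposited and separate after thinning, with 2.86 to 3.88% of all cells in wild type and 1.76 to 2.01% in knockout mice.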

How the data were processed

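The authors deposited, per mouse, a matrix of raw UMI counts (whole numbers, cells in rows) with a cluster number for each cell. The sources used here do not name the aligner, the counter or the genome build. Libraries were 10x Chromium 3' version 2, per the labels. Symbols were matched to GENCODE M21 (17438 of 18011). Cells with at least 500 genes were kept. A simulated-doublet score marked 0.8% of cells per 1000 cells; marked cells stayed in and were removed as an alternative. Counts of members, of non-dividing basophil-like cells (0 UMIs of the 6 division genes) and of other dividing cells (0 UMIs of the 4 basophil genes) were summed per mouse, because cells are not replicates. Members summed to 779428 to 2119102 UMIs per mouse.

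Sums were tested with the 2-sided quasi-likelihood test of edgeR, after TMM scaling and a filter on low counts, with Benjamini-Hochberg adjustment over all tested genes and a threshold of 0.05, 3 against 3 mice. Differences between populations were tested with an interaction term and a term per mouse. The 13 genes of the rule were not tested. The edgeR step was tested on simulated data. Shares of cells were compared by an exact 2-sided permutation test over the 20 assignments, after random thinning of each cell to 3000 UMIs; intervals are exact binomial at 95% and cover counting error only.

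The members and gene lists were chosen with earlier results of these data known. Named genes were the 12 largest changes in each direction among genes past 0.05, without overlap between genotypes and averaging at least 20 CPM; up to 4 members of each list with the smallest p; Stag1 and Stag2; and 6 genes in each direction for each difference. Predicted and sex-linked genes other than Stag2 were counted and not named. One gene of the surface list is counted there and not reported here. Further list members and the windows for promoters were chosen after their values were seen. The alternatives included RLE factors, DESeq2, dropping the low-count filter, limma on per-mouse differences, thresholds of 2 or 5 UMIs, 1000 genes per cell, thinning, the title prefix as a covariate or the XA samples alone, each library left out, and members without doublet-scored cells or without cells with at least 3 UMIs of 8 genes of other lineages. Leading clusters, members with at least 1% protease UMIs and, for shares, a rule without Fcer1a were added after the data were seen. Statistics were run in R 4.3.3 (limma 3.58.1, edgeR 4.0.16, DESeq2 1.42.0) and in Python 3.11.15 (scipy 1.17.1, numpy 2.4.6, scikit-learn 1.9.0, pandas 2.3.3, matplotlib 3.10.9).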

Additional observations from a re-analysis of the deposited data

Results flagged for a closer look

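The genes below passed edgeR's test of the difference in genotype effect between dividing basophil-like cells and another population of the same mice (adjusted p under 0.05). By limma on per-mouse differences, 0 of the 16 genes against non-dividing cells and 0 of the 15 against other dividing cells passed. After thinning to 3000 UMIs, 0 of the 16 passed and 4 of them turned sign, while 8 of the 15 passed. Values are log2 differences, the members' effect minus the other population's, so that a positive value means a higher knockout level relative to wild type in the members.

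Against non-dividing basophil-like cells the value was positive for Gstm1 (1.45), Csf2rb2 (1.34), Ifitm1 (1.28), the fatty acid binding protein gene Fabp5 (1.21), Jchain (1.08), the lipid droplet gene Plin2 (1.04) and Hdc (0.94). It was negative for Cdh1 (-1.79), Irf8 (-1.57), the mitotic kinesin gene Kif20b (-1.48), Serpinb1a (-1.04), Cmc2 (-0.92), Plin3 (-0.86), Cpa3 (-0.55), Prss34 (-0.53) and Mcpt8 (-0.50). Fabp5 was at 74.4, 42.8 and 68.9 CPM against 72, 87.5 and 57.1 CPM in the members and fell in non-dividing cells from 151, 195 and 179 CPM to 84.4, 82.5 and 97.9 CPM (log2 fold change -1.09, edgeR adjusted p = 2.10e-05). Plin2 fell in non-dividing cells by a log2 change of -1.14 (edgeR adjusted p = 6.50e-04) and Cmc2 rose there by 0.80 (edgeR adjusted p = 0.00167), while neither passed in the members. Besides the genes treated in the report, single libraries left out ended the calls of Jchain (KO1, KO2, KO3 or WT3, with 0.51 and an edgeR adjusted p of 0.611 without WT3), Plin2 (KO2, KO3, WT1 or WT2), Plin3 (KO1, KO2, KO3, WT1 or WT2) and Kif20b (KO1, KO2 or WT2). Without WT2 the values of Prss34 and Cpa3 shrank to -0.26 and -0.37.

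Against other dividing cells the value was positive for Hs3st1 (2.44), Csf2rb2 (2.11), Marcks (1.85), the chemokine receptor gene Ccr2 (1.84), the MHC class II gene H2-Ab1 (1.26) and Ctnna1 (1.195). It was negative for Igfbp7 (-2.74), Cpa3 (-2.49), the lactate dehydrogenase gene Ldhc (-2.13), Lcn2 (-2.05), Hdc (-1.90), Ccl4 (-1.87), Cd63 (-1.48), Mcpt8 (-0.93) and Serpinb1a (-0.62). In other dividing cells free RNA and expression cannot be told apart at the level of Mcpt8, nor at the 0.781 to 6.86 CPM of Igfbp7, Hs3st1, Csf2rb2, Ccl4 and Ldhc, so no change of expression there is read from these values. Without WT2 the value of Ccl4 was -1.15 (edgeR adjusted p = 0.384), and its call was also lost without KO1, KO2 or KO3. Without KO1 the calls of Csf2rb2, Ccr2, Ctnna1, Igfbp7, Ldhc, Marcks, Mcpt8 and Serpinb1a were lost, as were that of Csf2rb2 without KO3 or WT2 and that of Serpinb1a without KO2 or WT2. H2-Ab1 fell in other dividing cells by a log2 change of -1.51 (edgeR adjusted p = 9.67e-04), and was at 59, 79.2 and 77.9 CPM against 65.2, 68.7 and 69.6 CPM in the members. The part of the mix of lineages among other dividing cells was not tested for any gene of this comparison. Ldhc was at 52.6, 40.7 and 30.7 CPM against 13, 14.4 and 15.4 CPM in the members (log2 fold change -1.59 ± 0.24 SE, edgeR adjusted p = 8.33e-04).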

How the results depend on the processing

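The 257 genes called in the members became 126 with 5 UMIs in the rule, 117 in the XA samples alone (WT1 being the lone wild type mouse, assumed to vary like the others), 433 without a low-count filter, 51 with the prefix covariate, 58 after thinning (2502 genes tested), 6 without mixed-lineage cells and 129 in the leading clusters. Leaving out 1 library gave 152 to 254. Of 786 genes called in non-dividing cells, 185 were called with the prefix covariate, 155 after thinning and 489 to 777 without 1 library. Other dividing cells (1057) gave 486, 296 and 531 to 1140, and 1588 without a filter. Differences from non-dividing cells (40) numbered 9 with 5 UMIs, 0 by limma, 0 after thinning (326 at an unadjusted p under 0.05) and 13 to 98 without 1 library; those from other dividing cells (172) 98, 1, 44 and 38 to 408. DESeq2 gave 172 calls in the members. Of the 60 named calls, 19 passed with the prefix covariate and 30 in the XA samples alone; Cdkn2d and Car2 alone of the 60 turned sign under an alternative in which they were tested.

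Signs turned for Cdkn2d without mixed-lineage cells (0.37), Car2 with 2 UMIs in the rule (-0.0067), Prg2 in the XA samples alone (3.31) and in members with 1% protease UMIs (3.83), and after thinning for the differences from non-dividing cells of Mcpt8 (0.20), Prss34 (0.35), Irf8 (0.73) and Plin2 (-0.054). The cause was not tested. The share of members among all cells, knockout minus wild type, was -1.54 percentage points, -0.474 without thinning, -0.733 at 2000 UMIs, -0.725 without mixed-lineage cells and -1.83 to -1.32 without 1 library. That among basophil-like cells was -9.66, -1.22, -3.50, -6.15 and -11.1 to -7.88 percentage points. The filter on mixed-lineage cells also removed members, since Mpo is expressed in them. No paired analysis was possible because the labels give the genotypes no shared replicate numbers. WT1 and KO2, with 81 and 79 members, set the precision for genes of low level.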
